A study of Mus musculus with 9 samples.

Results

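The comparison described here is that of control siRNA transfection with no treatment, in mouse embryonic stem cells. It rests on 6 of the 9 libraries of the series, 3 from cells transfected with an siRNA against luciferase (siLuc) and 3 from untreated cells, and takes in all genes. Members were chosen by the group that the name of each column gives. All cells were wildtype E14, an established line of mouse embryonic stem cells, held in the naive state on fibronectin in medium with LIF, the MEK inhibitor PD0325901 and the GSK3 inhibitor CHIR99021. The siLuc cells received 50 pmol siRNA with the lipid reagent Lipofectamine RNAiMax at seeding and again on the next day, and were collected at 48 hours. Untreated cells had no treatment by the labels, so neither lipid alone nor medium change alone was separated from the siRNA. The 3 remaining libraries, from cells given siRNA against Stag3 (siStag3), entered the fit to share its estimate of spread and are quoted side by side. RNA was measured by mRNA sequencing as counts per gene.

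Luciferase is a light-producing enzyme with no gene in the mouse, so an siRNA against it is meant to enter the RNA interference machinery without silencing a gene of the cell. Transfection brings cationic lipid into the endosomes and small double-stranded RNA into the cytosol, where RIG-I-like sensors can lead to interferon. The liver X receptors (LXR) are nuclear receptors for oxysterols that switch on sterol export. In naive stem cells the inhibition of GSK3 stabilises β-catenin, the mediator of WNT signalling, LIF acts through STAT3, and both glycolysis and oxidative phosphorylation are in use. Glycolytic genes, together with genes of mitophagy and collagen hydroxylation, are induced in low oxygen by the hypoxia-inducible factors (HIF), which bind the core letters ACGTG or GCGTG.

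The 250 bases before the start of 4 genes that rose in siLuc cells, and that belong to the HIF response, are shown to let the core be seen in its place. They are from RefSeq (GRCm38.p6), 5′ to 3′ along the gene's strand, with the core of either strand in capitals.
Bnip3, chr7:138909507-138909756, minus strand: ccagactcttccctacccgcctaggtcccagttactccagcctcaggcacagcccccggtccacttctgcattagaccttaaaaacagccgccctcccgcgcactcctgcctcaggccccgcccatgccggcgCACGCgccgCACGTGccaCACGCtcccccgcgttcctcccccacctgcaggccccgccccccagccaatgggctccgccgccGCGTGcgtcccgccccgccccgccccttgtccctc
Slc16a3, chr11:120948817-120949066, plus strand: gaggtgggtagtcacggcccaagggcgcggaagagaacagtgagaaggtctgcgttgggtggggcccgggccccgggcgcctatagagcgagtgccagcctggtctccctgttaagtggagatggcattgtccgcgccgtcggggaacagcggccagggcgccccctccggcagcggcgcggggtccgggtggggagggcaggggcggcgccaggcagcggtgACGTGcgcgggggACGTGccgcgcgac
Pdk1, chr2:71872974-71873223, plus strand: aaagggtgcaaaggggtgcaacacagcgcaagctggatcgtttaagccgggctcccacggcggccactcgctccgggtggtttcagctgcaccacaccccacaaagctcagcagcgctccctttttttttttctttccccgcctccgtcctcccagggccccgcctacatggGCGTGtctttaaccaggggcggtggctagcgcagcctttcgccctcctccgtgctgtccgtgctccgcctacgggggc
Ldha, chr7:46845554-46845803, plus strand: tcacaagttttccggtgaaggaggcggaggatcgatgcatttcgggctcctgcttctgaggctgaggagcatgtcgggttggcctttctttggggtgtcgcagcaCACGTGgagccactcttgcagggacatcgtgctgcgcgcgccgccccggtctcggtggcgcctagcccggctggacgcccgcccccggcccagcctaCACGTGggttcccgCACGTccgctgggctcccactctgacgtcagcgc
The core matched 5 times before Bnip3, counting both strands and overlapping matches within a palindrome. It matched 2 times before Slc16a3, 1 time before Pdk1 and 5 times before Ldha; of the 2 starts listed for each of the last pair the first is shown. A match is a description of the letters only: the core stood in 54.4% of the 11244 promoters of tested genes in the RefSeq table. In the list of glycolysis and lactate export it stood in 19 of 27 promoters (70.4%). In that of hypoxia targets outside glycolysis it stood in 16 of 24 (66.7%). The lysosome list, in which no gene rose, had it in 22 of 32 (68.8%). It stood in 6 of 12 promoters of the LXR list (50%) and 5 of 13 of the WNT targets (38.5%).

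Total counts of the 6 libraries ran from 31587903 to 44527534. Column names gave a set (1 or 3) and an experiment (1, 3 or 5) for each library, and each group had 2 libraries of Set 1 and 1 of Set 3. The siLuc and untreated libraries of Set 3 come from experiments 1 and 5, so experiment and transfection cannot be told apart there. The first principal component (50.8% of variance) placed Set 3 below Set 1 within each group, and the set entered the test as a covariate. Within Set 3 its scores were -28.4 for untreated and -32.1 for siStag3, both of experiment 5, and -11.0 for siLuc, of experiment 1. That siLuc library also had the lowest score on the second component (-19.8), so it stood apart from the transfected siStag3 library of its set. Mitochondrially encoded genes took 3.48%, 4.41% and 5.33% of the counts in untreated libraries and 5.98%, 6.08% and 6.73% in siLuc, with no overlap. Markers of naive stem cells were high in all 6 libraries, with Pou5f1 at 800 to 921 CPM and Nanog at 615 to 700 CPM (counts relative to library size scaled by TMM factors). Of the markers of other cell types, Gata4, Gata6, Sox17 and Sox7 of the primitive endoderm, Gata3, Mixl1, Col1a1, Col1a2 and Postn stayed below 1 CPM in each library. Pdgfra, Cdx2, Elf5, Thy1 and Sox1 reached at most 2.02 CPM and T at most 6.24 CPM in these 6. The neural markers Tubb3 (101 to 117 CPM) and Nes (22.6 to 30.2 CPM) were higher. Pax6, a regulator of neural fate, rose from 2.61, 2.25 and 2.32 CPM to 3.85, 3.31 and 3.62 CPM (log2 fold change 0.59, adjusted p 0.0316), a call made in 1 of 6 fits that each left out 1 library. Stag3 itself was at 24.1, 24.3 and 28.6 CPM in untreated cells and at 22.5, 23.3 and 26.7 CPM in siLuc (log2 fold change -0.09, SE 0.0694, edgeR adjusted p 0.429).

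At an adjusted p under 0.05, 598 of 14246 genes differed between siLuc and untreated cells (4.2%). Of these 235 were higher (1.65%) and 363 lower (2.55%) in siLuc. CPM did not overlap between the groups in 2831 genes (19.9%), 382 of them among the 598. The changes were small, with a median absolute log2 fold change of 0.389. 23 genes changed by at least 1 on the log2 scale, and 167 by at least 0.5. Scaling by total count alone, which moved the median of all genes to -0.053 on the log2 scale, put 21.2% of the calls on the higher side in place of 39.3%. Without the set covariate 1 gene passed, Abcg1. With a library block that matched the Set 1 libraries by experiment 317 passed. Each library carried part of the count: it was 175 without the untreated library of Set 1 experiment 1, 357 without that of Set 1 experiment 3 and 111 without that of Set 3. Leaving out siLuc libraries gave 146 for Set 1 experiment 1, 387 for Set 1 experiment 3 and 127 for Set 3. In all 6 of these fits 70 genes remained past the threshold, 28 higher and 42 lower. They include Abcg1, Abca1, Mylip, Scd1 and Scd2 of the LXR list, and Slc16a3, Pdk1, Ldha, Pfkl, Bnip3 and P4ha1 of glycolysis and hypoxia. Among those that fell in all 6 were the WNT targets Cdx1, Apcdd1 and Sp5 and the metallothioneins Mt1 and Mt2.

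**Figure D1:**
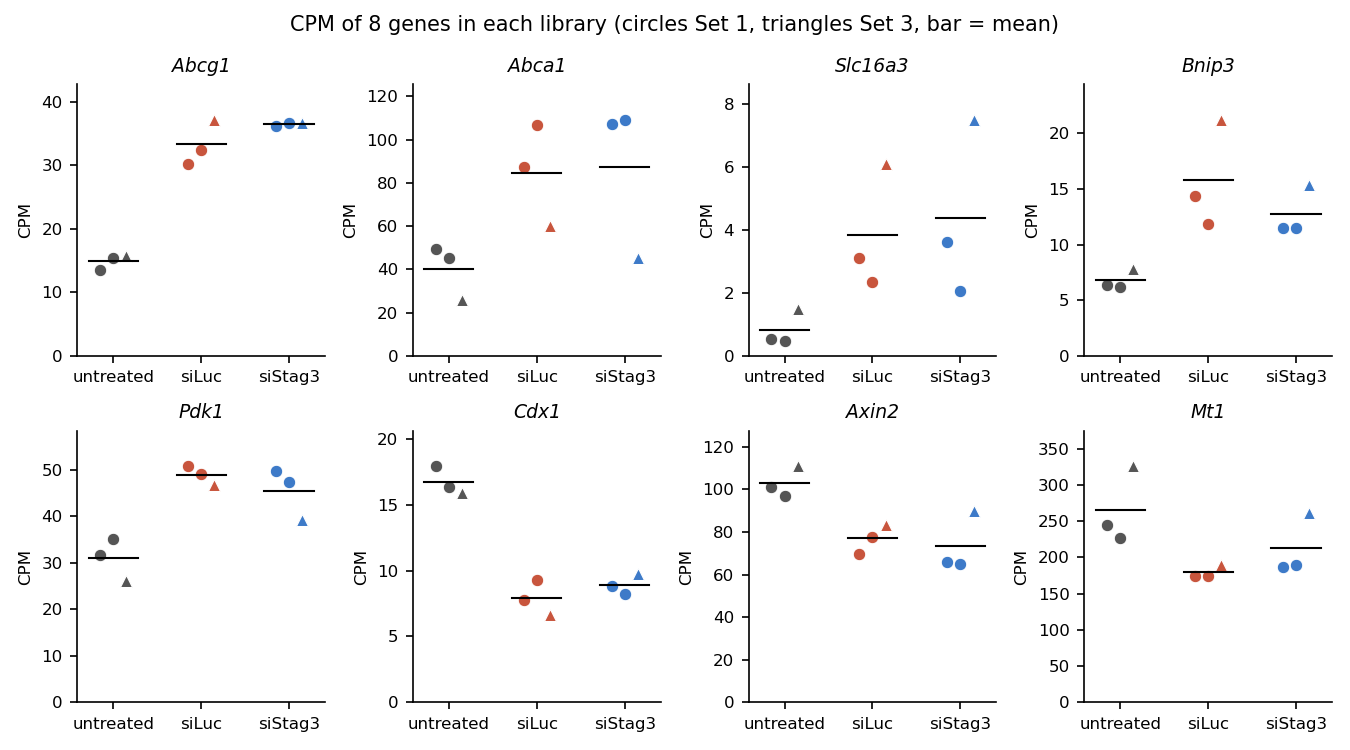
CPM (vertical axis, linear, from 0) of 8 genes in each of the 9 libraries by group, with circles for Set 1, triangles for Set 3 and a bar at the group mean. Abcg1, Abca1, Slc16a3, Bnip3 and Pdk1 are higher in each siLuc library than in any untreated library, and Cdx1, Axin2 and Mt1 are lower; the siStag3 libraries are shown beside them.

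The largest rise was in Slc16a3 (ENSMUSG00000025161), which encodes the monocarboxylate transporter MCT4 that carries lactate out of the cell. It was at 0.533, 0.473 and 1.47 CPM in untreated cells and at 3.12, 2.35 and 6.08 CPM in siLuc, in the order Set 1 experiment 1, Set 1 experiment 3 and Set 3 that is kept below. The groups did not overlap, and Set 3 was the highest in both. Its log2 fold change came to 2.24 (SE 0.225; adjusted p by edgeR 0.000335). Pdk1, the kinase that inhibits pyruvate dehydrogenase, rose from 31.6, 35.2 and 26.1 CPM to 50.7, 49.1 and 46.7 CPM (log2 fold change 0.67, SE 0.0725, adjusted p 0.000393). Ldha, the subunit of lactate dehydrogenase that favours lactate, was at 215, 211 and 257 CPM and then at 316, 304 and 337 CPM, a log2 fold change of 0.49 (adjusted p 0.000393). Neither gene overlapped between the groups. Pfkl, a phosphofructokinase of the committed step of glycolysis, rose by 0.47 on the log2 scale (adjusted p 0.00323), from 36.4, 31.7 and 49.6 CPM to 48.6, 48.2 and 65.7 CPM. Its groups overlapped only across sets, since the untreated Set 3 library was above the siLuc libraries of Set 1. Triosephosphate isomerase Tpi1 (log2 fold change 0.31) and phosphoglycerate kinase Pgk1 (0.32) completed the 6 of 29 glycolysis entries that rose (Aldoa has 2 entries). None fell, and the median of the 29 was 0.046 on the log2 scale beside -0.002 for all genes. The rise was not shared by the whole pathway: Gapdh differed by 0.02 (adjusted p 0.867) and the glucose transporter Slc2a3 by -0.12 (adjusted p 0.15). With GC content corrected, 12 glycolysis genes rose and 1, Slc2a3, fell; those added were Slc2a1, Aldoa, Pgam1, Eno1, Pkm and Pfkfb3.

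Bnip3 (ENSMUSG00000078566), a receptor that marks mitochondria for autophagy, was at 6.37, 6.23 and 7.82 CPM in untreated cells and at 14.4, 11.8 and 21.2 CPM in siLuc. Each siLuc library was above each untreated one, and its log2 fold change came to 1.19 (SE 0.105; adjusted p by edgeR 0.000115). Its paralog Bnip3l went from 65.2, 80.2 and 67.2 CPM to 91.5, 90.2 and 96.1 CPM (log2 fold change 0.39, adjusted p 0.0375), a call that 5 of the 6 fits without 1 library did not make. P4ha1, a subunit of the prolyl hydroxylase of collagen, rose by 0.43 (adjusted p 0.00289). The list of hypoxia targets outside glycolysis held 31 tested genes, of which 3 rose and 1 fell (Ppfia4, log2 fold change -0.30, adjusted p 0.0355; -0.15 with GC content corrected, adjusted p 0.162). Their median was 0.18 on the log2 scale, with 24 of the 31 above 0. Ndrg1 (0.31, adjusted p 0.0668) and the oxidoreductase gene Ero1a (0.25, adjusted p 0.0612) missed the threshold, while the angiogenic ligand Vegfa differed by -0.11 and the oxygen sensor Egln3 by 0.09. Of the 10 tested genes of the HIF system itself none passed. Hif1a, which is mostly controlled through protein stability, was at 115, 122 and 97.1 CPM and then at 139, 136 and 127 CPM (log2 fold change 0.27, adjusted p 0.0507; 0.11 with GC content corrected).

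Among the 13 proteins encoded in the mitochondrial genome, all of them subunits of the respiratory chain or of ATP synthase, 5 rose and none fell. The median of the 13 was 0.64 on the log2 scale, and 0.41 with GC content corrected, where 6 rose. mt-Nd5, a subunit of complex I, was at 2567, 2531 and 1628 CPM in untreated cells and at 3695, 3514 and 2705 CPM in siLuc (log2 fold change 0.58, SE 0.0692, edgeR adjusted p 0.00077). mt-Nd4l, mt-Nd4, mt-Co1 and mt-Cytb rose by 0.49, 0.67, 0.37 and 0.31. With GC content corrected mt-Co1 was at 0.19 and mt-Cytb at 0.13 (adjusted p 0.123), so that the latter lost its call. The 5 genes with the widest differences, from 1.01 for mt-Nd3 to 1.34 for mt-Co3, did not pass. mt-Co3, named after its values were seen, was at 1756, 4425 and 1411 CPM in untreated cells against 5830, 5028 and 6199 CPM in siLuc (log2 fold change 1.34, SE 0.581, adjusted p 0.211). The untreated library of Set 1 experiment 3 stood close to the siLuc libraries, and the siStag3 library of Set 3, which shares experiment 5 with the untreated one, was at 1508 CPM. Set 1 alone gave a median difference of 0.50 for the 13 genes and Set 3 one of 0.89. Calls fell to 3 without the siLuc library of Set 3 and to 2 without the untreated library of Set 3. Respiratory subunits encoded in the nucleus showed no such rise. Of 81 tested, none was higher and 3 were lower, namely Cox6b2 (-0.31), Atp5g1 (-0.30) and Uqcrq (-0.29), with a median of -0.027. Cox6b2 (adjusted p 0.115) and Atp5g1 (adjusted p 0.0638) did not pass with GC content corrected. Nuclear genes of the mitochondrial ribosome had 1 higher and 1 lower of 78.

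Abcg1 (ENSMUSG00000024030), an exporter of cholesterol and an LXR target, had the smallest p of all genes. It was at 13.5, 15.4 and 15.7 CPM in untreated cells and at 30.3, 32.5 and 37.2 CPM in siLuc, or 1.16 higher on the log2 scale (SE 0.0767; adjusted p by edgeR 8.4e-06). The 2 groups did not overlap, with an SD of 1.16 and 3.52 CPM (n = 3 each). Abca1, the transporter that loads cholesterol onto apolipoprotein A-I, was at 49.6, 45.5 and 26.0 CPM and rose to 87.2, 107 and 60.2 CPM (log2 fold change 1.09, adjusted p 0.00106). Here Set 3 was the lowest in both groups, and the groups still did not overlap. Mylip, a ubiquitin ligase, rose from 8.64, 7.77 and 8.04 CPM to 14.0, 14.8 and 13.9 CPM (log2 fold change 0.80, adjusted p 0.000378). The fatty acid desaturases Scd1 and Scd2, also LXR targets, rose by 0.47 and 0.46, and neither overlapped between groups. In the list of 17 tested LXR genes, 5 rose and 2 fell, with a median of -0.012. The 2 that fell were the receptor gene Nr1h2 itself (log2 fold change -0.44, adjusted p 0.0426) and the apolipoprotein gene Apoe (-0.35, adjusted p 0.022), and no fit without 1 library kept the call of Nr1h2. Srebf1, the lipogenic factor under LXR, differed by 0.17 (adjusted p 0.219), and by 0.33 with GC content corrected (adjusted p 0.00018). The sequence AGGTCA, a core that nuclear receptors bind, was found in none of 12 promoters of the list and in 10.9% of all promoters searched, which speaks only of those 250 bases. Of the 5 genes that rose only 2, Abca1 and Mylip, were among the 12.

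Sterol synthesis did not rise with export. Of 27 tested genes of cholesterol synthesis and uptake none was higher and 2 were lower, among them Tm7sf2, a sterol reductase (log2 fold change -0.42, edgeR adjusted p 0.0317). Neither call held without the siLuc or the untreated library of Set 3, or in Set 1 alone. The median of the list was -0.11, and -0.139 with GC content corrected, where 7 were lower. Fatty acid synthesis had 4 higher and 1 lower of 19. Beside Scd1 and Scd2 the acyl-CoA ligase Acsl3 rose by 0.35 and the elongase Elovl5 by 0.29, while Mlxipl, a glucose-responsive factor, fell by 0.51. Of 30 genes of fatty acid oxidation and lipid droplets, Plin2, which coats the droplets, fell by 0.34 and the lipase Mgll by 0.58. Lpcat1, which remodels phosphatidylcholine and was named after its values were seen, was at 125, 124 and 111 CPM in untreated cells and at 88.7, 91.0 and 83.9 CPM in siLuc (log2 fold change -0.45, adjusted p 0.00114). Rnf145, a sterol-responsive ubiquitin ligase of the endoplasmic reticulum and likewise named afterwards, went from 37.5, 37.2 and 36.7 CPM to 51.5, 55.8 and 52.9 CPM (log2 fold change 0.52, adjusted p 0.000637).

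**Figure D2:**
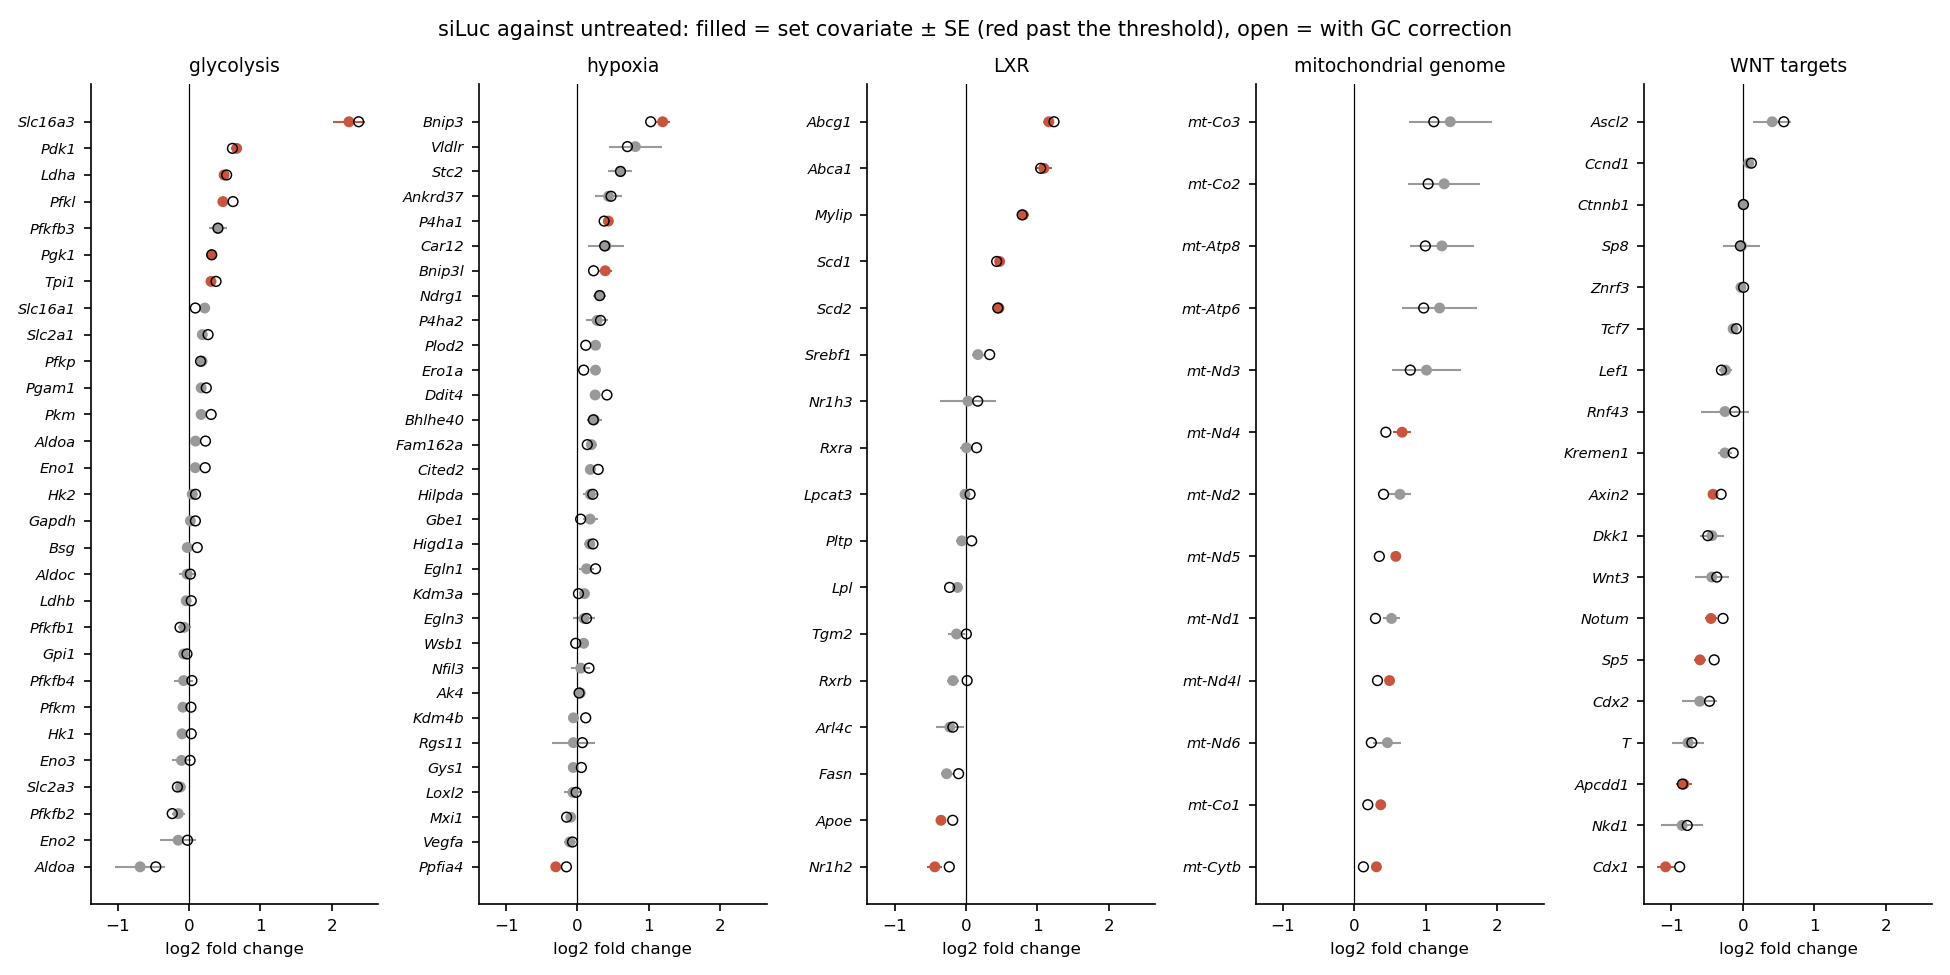
Log2 fold change of siLuc against untreated cells (horizontal axis) for each tested member of 5 lists, filled points with ± SE from the fit with the set covariate, red where the adjusted p is under 0.05, and open circles with GC content corrected. 6 of 29 glycolysis genes, 3 of 31 hypoxia genes, 5 of 17 LXR genes and 5 of 13 mitochondrial genes are red above 0, and 5 of 19 WNT targets are red below 0.

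WNT target genes were lower where they changed. Of 19 tested, 5 fell and none rose, with a median of -0.42 on the log2 scale (-0.30 with GC content corrected, 6 lower). Cdx1, a homeobox gene under direct WNT control, was at 17.9, 16.4 and 15.9 CPM in untreated cells and at 7.80, 9.24 and 6.62 CPM in siLuc (log2 fold change -1.08, SE 0.114, edgeR adjusted p 0.000378). Apcdd1, a membrane inhibitor of WNT, fell from 14.9, 13.8 and 10.5 CPM to 7.83, 8.31 and 5.95 CPM (-0.83, adjusted p 0.00141), and the transcription factor Sp5 from 78.1, 75.8 and 86.5 CPM to 50.4, 54.5 and 53 CPM (-0.60, adjusted p 0.0037). In these 3 genes the groups did not overlap. Axin2, the feedback scaffold that is the usual readout of the pathway, was at 101, 96.7 and 111 CPM and then at 69.7, 77.8 and 83.4 CPM (-0.42, adjusted p 0.00747). The WNT deacylase Notum fell by 0.45, with overlap across sets only. The calls of Axin2 and Notum were lost without the siLuc library of Set 1 experiment 1 or that of Set 3. Members that did not pass included Brachyury (T), at 4.07, 4.14 and 6.24 CPM against 1.27, 3.04 and 4.28 CPM (-0.77, adjusted p 0.0651), and Lef1 (-0.24, adjusted p 0.112). Ctnnb1, which encodes β-catenin, differed by 0.01 (adjusted p 0.94). Set 1 alone called 5 of the list lower, and without the siLuc library of Set 3 there were 3.

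Of 23 tested genes of ERK feedback and early response 2 rose and 4 fell, with a median of 0.006 and 12 above 0. With GC content corrected 4 rose and 2 fell. The early gene Egr1 was at 171, 173 and 44.4 CPM in untreated cells and at 92.8, 123 and 26.9 CPM in siLuc, so that Set 3 was far below Set 1 in both groups and siLuc was lower within each set (log2 fold change -0.69, edgeR adjusted p 0.00162; -0.55 with GC content corrected, adjusted p 0.072). Ier2, Junb and Dusp1 fell by 0.42, 0.36 and 0.30, and Junb did not pass with GC content corrected (-0.16, adjusted p 0.158). Fos went from 47.7, 49.4 and 11.4 CPM to 29.3, 35.7 and 11.8 CPM and did not pass (adjusted p 0.132). The feedback inhibitors Spry4 (0.77, adjusted p 0.0402) and Dusp6 (0.39, adjusted p 0.0465) were higher, but neither call was made in any fit without 1 library. Of the 16 genes of the LIF and STAT3 list 3 fell, Pim1, Bcl3 and Junb, by 0.29, 0.36 and 0.36; Socs3, the main feedback gene, differed by -0.14 (adjusted p 0.253). Only Pim1 passed with GC content corrected (-0.16, adjusted p 0.0407), and none of the list did when the siLuc or the untreated library of Set 3 was left out. In the NODAL and BMP list of 27, the antagonist Lefty2 (0.35) and the corepressor Skil (0.50) rose, and Id3 (-0.42) and the inhibitory Smad7 (-0.26) fell. On GC correction 4 of the list rose and 1 fell, and Smad7 did not pass (-0.11, adjusted p 0.145). Skil was at 28.6, 31.7 and 25.7 CPM and then at 42.2, 40.2 and 38.6 CPM.

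Most pluripotency factors differed little. Of 18 naive genes the lysosomal mannosidase Manba, a naive marker, rose by 0.40 (edgeR adjusted p 0.0037) and the homeobox gene Gbx2 fell by 0.47 (adjusted p 0.00764). The call of Gbx2 was lost without the siLuc or the untreated library of Set 3. Esrrb differed by -0.10, Klf4 by -0.07, Nanog by 0.01 and Zfp42 by 0.12, none past the threshold. Dppa3, a marker of naive stem cells, was at 38.1, 43.5 and 50.4 CPM in untreated cells and at 37.0, 34.7 and 32.3 CPM in siLuc, without overlap. Among 15 core genes L1td1 and Lin28a, both RNA-binding proteins, rose by 0.29 and 0.22, and Pou5f1 (-0.12) and Sox2 (0.20) did not pass. Of 20 formative and primed genes Otx2 (0.48, adjusted p 0.00982) and Zic5 (0.42, adjusted p 0.0231) rose. Otx2 differed by set more than by treatment, at 11.6, 12 and 22.5 CPM in untreated cells and 17.0, 14.1 and 34.5 CPM in siLuc. Germline genes had 3 higher and 1 lower of 28 and a median of 0.32. The RNA helicase Ddx4 rose from 2.61, 3.16 and 2.32 CPM to 4.93, 5.24 and 3.56 CPM (0.75, adjusted p 0.0128), and Stra8, the gatekeeper of meiosis, fell from 14.4, 17.0 and 14.6 CPM to 11.9, 11.5 and 7.56 CPM (-0.60, adjusted p 0.0118). None of the core, formative or germline calls held in all 6 fits without 1 library. Imprinted genes gave 2 higher and 1 lower of 28, among them Mest, which rose from 53.3, 58.1 and 39.8 CPM to 73.0, 73.1 and 62.7 CPM (0.48, adjusted p 0.00192).

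Of 32 tested genes of double-stranded RNA sensing and the interferon response, 1 rose and 1 fell, with a median of -0.024. That share of calls was 6.25%, beside 4.2% of all genes. Ddx58, which encodes the sensor RIG-I, was at 40.3, 40.0 and 36.8 CPM in untreated cells and at 53.8, 49.5 and 47.5 CPM in siLuc (log2 fold change 0.36, SE 0.0602, edgeR adjusted p 0.00594), and lost its call without the untreated library of Set 3. Irf3, the factor that acts downstream of it, fell by 0.36 (adjusted p 0.0196); it did not pass with GC content corrected (-0.21, adjusted p 0.0575) or in any fit without 1 library. The interferon-induced genes Ifit2 (0.51, adjusted p 0.23), Rsad2 (0.86, adjusted p 0.219), Oasl1 (0.60, adjusted p 0.132) and Mx1 (0.01) did not pass. Ifit2 and Rsad2 were below 1 CPM in each of the 6 libraries, so that their folds rest on few counts. Of 23 genes of RNA interference only Lin28a passed, and Ago2 and Dicer1 did not. The list of NF-kappaB and inflammation had 1 lower of 15, Bcl3, and that of P-bodies and mRNA decay 1 lower of 41, Zfp36 (-0.32); neither passed with GC content corrected (adjusted p 0.0517 and 0.062).

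Among stress programmes the share of calls ranged from none of the chaperones of the endoplasmic reticulum to 33.3% of the 12 genes of metallothionein and zinc handling. In the integrated stress response and ATF4 list 1 of 39 rose (5 with GC content corrected, none lower), the serine synthesis gene Psat1 (0.28, edgeR adjusted p 0.0307), and Ddit3 (0.22, adjusted p 0.304) and Atf4 (-0.05) did not pass. No chaperone of the endoplasmic reticulum passed among 23, and of 26 heat shock genes Hspb8 fell by 0.23. The metallothioneins, which bind zinc and copper, fell together. Mt1 was at 244, 227 and 325 CPM in untreated cells and at 174, 175 and 190 CPM in siLuc (-0.54, adjusted p 0.00141), and Mt2 at 294, 294 and 358 CPM and then at 236, 233 and 237 CPM (-0.41, adjusted p 0.00286). The zinc importers Slc39a14 (0.59) and Slc39a10 (0.29) rose, but neither call held without the siLuc or the untreated library of Set 3. Redox genes split, with 2 higher and 2 lower of 36: Gclm, of glutathione synthesis, rose by 0.37 and Txnip by 0.22, while the ferritin light chain Ftl1 fell by 0.57 and glutaredoxin Glrx by 0.48. Glrx was at 43.8, 46.3 and 46.2 CPM in untreated cells and at 33.3, 30.8 and 33.6 CPM in siLuc. The transferrin receptor Tfrc, which brings iron in, was at 438, 528 and 346 CPM and then at 682, 688 and 634 CPM (0.64, adjusted p 0.049); no fit without 1 library kept that call. Ftl1 shares sequence with pseudogenes, so its count is uncertain. Of 35 p53 targets 4 rose, Ddit4l (0.49), Gadd45a (0.52), Zmat3 (0.25) and Eda2r (0.33), and Cdkn1a, the cyclin kinase inhibitor p21, fell from 201, 208 and 188 CPM to 165, 170 and 136 CPM (-0.35, adjusted p 0.0197). Only the call of Ddit4l held in all 6 fits without 1 library.

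In the lysosome list, which does not hold Manba, 5 of 40 genes fell and none rose, with a median of -0.132 and 8 of 40 above 0. The protease gene Ctsc was at 26.1, 27.9 and 25.9 CPM in untreated cells and at 19.5, 23.2 and 18.2 CPM in siLuc (log2 fold change -0.39, edgeR adjusted p 0.0217). The hexosaminidase Hexa (-0.32), the ion channel Mcoln1 (-0.34), the sterol carrier Npc2 (-0.23) and the carboxypeptidase Ctsa (-0.22) were the other 4. With GC content corrected 7 fell and the median was -0.0925, but Ctsa did not pass (-0.10, adjusted p 0.148). No lysosomal call held in all 6 fits without 1 library. Atp6v0b of the vacuolar ATPase fell by 0.32, the only one of 20, and none of 33 autophagy genes passed. The letters CACGTG, the core of the CLEAR element of lysosomal genes, stood in 10 of 32 promoters of the list (31.2%) and in 8.24% of all promoters searched.

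The share of calls was 6.56% in mitosis and the spindle, 4% in DNA replication, 8.7% in cyclins and their inhibitors and 15% in the cohesin list of 20, beside 4.2% of all genes. Of 61 genes of mitosis and the spindle 3 rose (Hmmr, Nusap1 and Kif18a, by 0.25 to 0.34) and the securin gene Pttg1 fell by 0.38; the 3 rises did not pass with GC content corrected. Of 50 DNA replication genes Tk1 (-0.29) and E2f1 (-0.26) fell, and E2f1 did not pass with GC content corrected (-0.09, adjusted p 0.288). The cohesin list gave Stag2 higher (0.36, edgeR adjusted p 0.0394; 0.14 with GC content corrected, adjusted p 0.072) and Rec8 lower (-0.35; adjusted p 0.0798 with GC content corrected), beside Pttg1. Replication-dependent histones (40), the proteasome (37), ribosome biogenesis (46), cytosolic aminoacyl-tRNA synthetases (20), the spliceosome (51) and the coats of the secretory pathway (36) had no gene past the threshold, and cytosolic ribosomal proteins 1 of 84, Rpl24 (-0.22). Of 35 genes in the list of matrix and integrins, Itgb5 (-0.46), Itga5 (-0.33, a subunit of the fibronectin receptor) and Lamb2 (-0.33) fell. After GC correction 2 of the list rose and 2 fell, Itga5 not among them (adjusted p 0.0575), and without the untreated library of Set 3 none passed. Of 32 YAP and SRF targets Ccn1 (-0.44) and Ccn2 (-0.31) fell; with GC content corrected 3 rose and 3 fell. In the epithelial list of 36, Rbm47 (0.41) and Tjp1 (0.32) rose and Lad1 (-0.55; adjusted p 0.0525 with GC content corrected) fell.

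**Figure D3:**
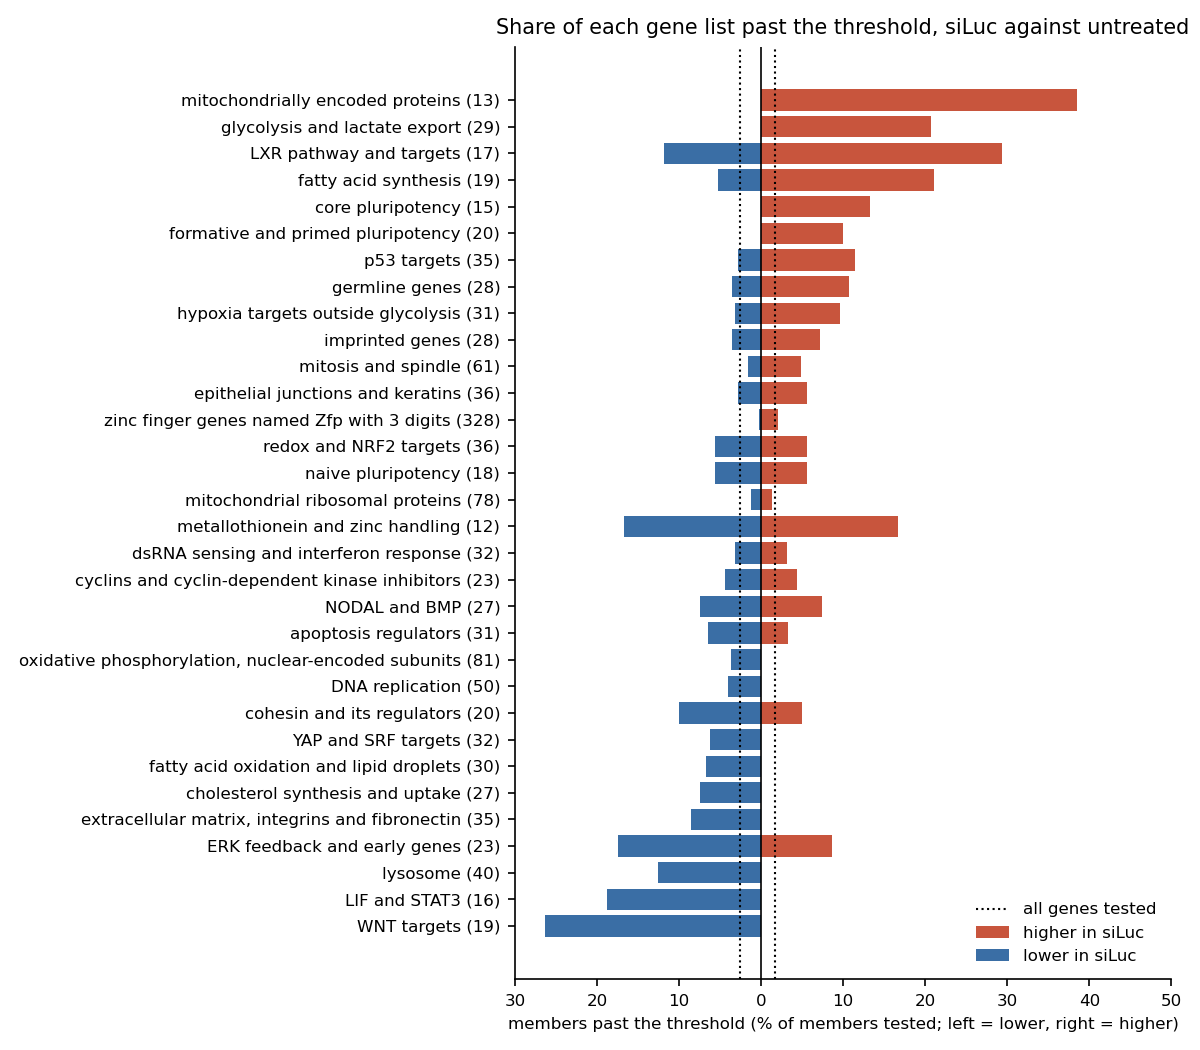
Share of tested members past the threshold (percent, lower in siLuc to the left, higher to the right) for the 32 lists with at least 10 tested members and at least 2 calls, number tested in parentheses. Dotted lines mark all genes (2.55% lower, 1.65% higher); the widest bars are mitochondrially encoded proteins and LXR targets to the right and WNT targets to the left.

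The 63 lists held 2110 of the tested genes and 123 of the 598 calls, so 475 changed genes lay in none of them. The rule for the largest rises named, beside Slc16a3, Bnip3, Abcg1 and Abca1, the kinase Stk39 (log2 fold change 1.104), the WNT5A receptor Ror1 (1.095), Ccdc85a (0.94), the transglutaminase Tgm3 (0.94), the actin bundler Pls1 (0.93) and Runx1t1 (0.92). All 6 lay between 0.982 and 3.39 CPM in untreated libraries. The largest falls were in Gpld1, a phospholipase that frees GPI-anchored proteins (-1.31, edgeR adjusted p 0.00639), the lens crystallin Crygd (-1.21), Htr5a (-1.14), AA986860 (-1.11), Cdx1, Akr1cl (-1.05), the troponin Tnni1 (-1.05), Bpifb5 (-0.96), Prr5l (-0.94) and Aqp3. Aqp3, a channel for water and glycerol, was the highest expressed of these, at 128, 119 and 126 CPM in untreated cells and 73.6, 80.7 and 57.0 CPM in siLuc (-0.83, adjusted p 0.000378). Genes outside every list that passed, named after their values were seen, included A2m (0.80), Adam23 (0.77) and Nefh (0.62) among the rises and Aox3 (-0.73), Pramel12 (-0.68), Crxos (-0.66) and Mep1b (-0.68) among the falls. The protease inhibitor gene A2m was at 10.5, 9.28 and 14.6 CPM and then at 16.9, 17.2 and 25.7 CPM. Aox3, an aldehyde oxidase, was at 54.6, 52.9 and 46.5 CPM and then at 34.5, 32.1 and 26.6 CPM. By symbol family of at least 20 members, the highest shares that rose were in Stk (2 of 20), Ddx (2 of 37) and Ube (2 of 37), and the highest that fell in Mettl (2 of 24), Klhl (2 of 27) and Atp (4 of 70).

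The fold changes followed the GC content of the transcripts. Across 14226 genes Spearman's rho of log2 fold change and GC content was -0.48, as a description over genes, which are not replicates. In 5 equal groups from lowest to highest GC the median log2 fold change was 0.16, 0.07, -0.0036, -0.08 and -0.16. Of the 235 higher genes 93 were in the lowest group, and of the 363 lower ones 159 were in the highest. The drift was uneven between libraries. In the lowest group the median deviation from the mean log2 level was -0.0835, 0.0597 and -0.202 in untreated libraries and 0.111, 0.079 and 0.054 in siLuc. In siStag3 it was 0.111, 0.148 and -0.234, so in Set 3 the siStag3 and untreated libraries, both of experiment 5, stood together. Zinc finger genes named Zfp, with a median GC content of 43.2%, had 7 higher and 1 lower of 328 and a median of 0.106, which went to 0.018 on correction. After subtraction of the median deviation per GC bin in each library, 1016 genes passed (7.13%), 454 higher (3.19%) and 562 lower (3.94%). They included 458 of the 598, and none of the 598 changed sign. The part of GC content in the smaller fold changes was not tested beyond this correction. The genes of largest fold moved little under it: Abcg1 went to 1.23, Slc16a3 to 2.38, Bnip3 to 1.03, Abca1 to 1.05 and Cdx1 to -0.88.

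**Figure D4:**
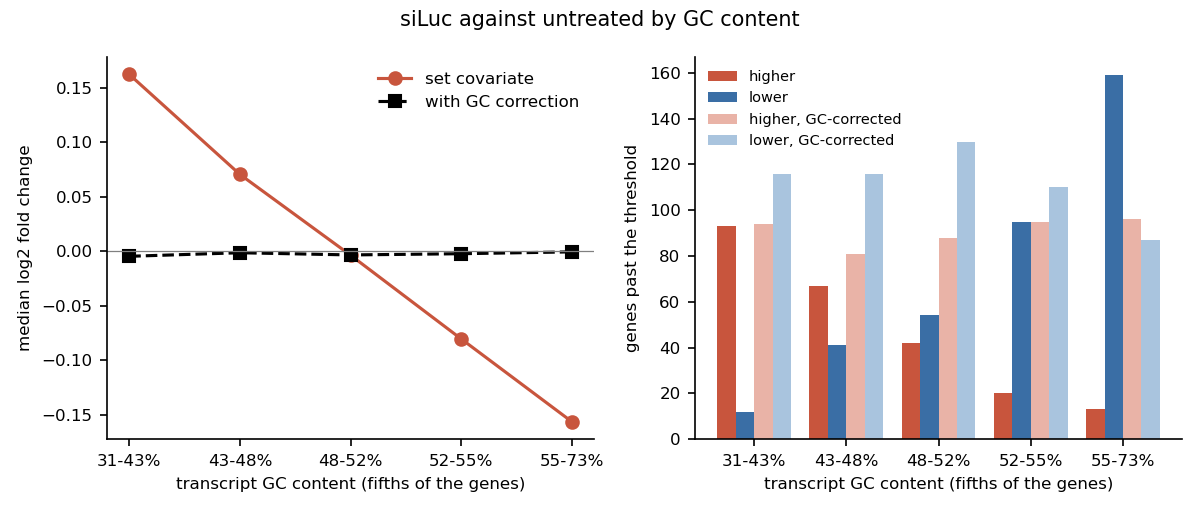
Left, median log2 fold change of siLuc against untreated cells in 5 equal groups of genes by transcript GC content, before (circles) and after (squares) GC correction; right, number of genes past the threshold in each group, by direction, with GC-corrected counts in pale bars. The uncorrected medians run from 0.16 to -0.16 and the corrected ones stay near 0.

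Set 1 and Set 3 share no library. Tested in Set 1 alone, with 2 libraries a group, 298 genes passed, 108 higher and 190 lower. Of the 297 also in the main table, 287 had the same sign in Set 3 (96.6%, beside 71.8% of all tested genes), and 251 (84.5%) differed there by at least 0.5 times the Set 1 difference. Each Set 3 difference, also in the test below, sets siLuc of experiment 1 against untreated of experiment 5, so it holds any difference between experiments too. The drift with GC content ran the same way in both sets, and its part in the shared signs was not tested. In Set 3 the differences of log2(CPM + 0.5) were 1.22 for Abcg1, 1.20 for Abca1, 1.74 for Slc16a3 and 1.38 for Bnip3, beside 1.09, 1.01, 1.68 and 0.99 in Set 1. Cdx1 differed by -1.20 in Set 3 and by -0.97 in Set 1. A test of the difference between the sets found 2 genes past the threshold (0.014%), with 1128 at an unadjusted p under 0.05.

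**Figure D5:**
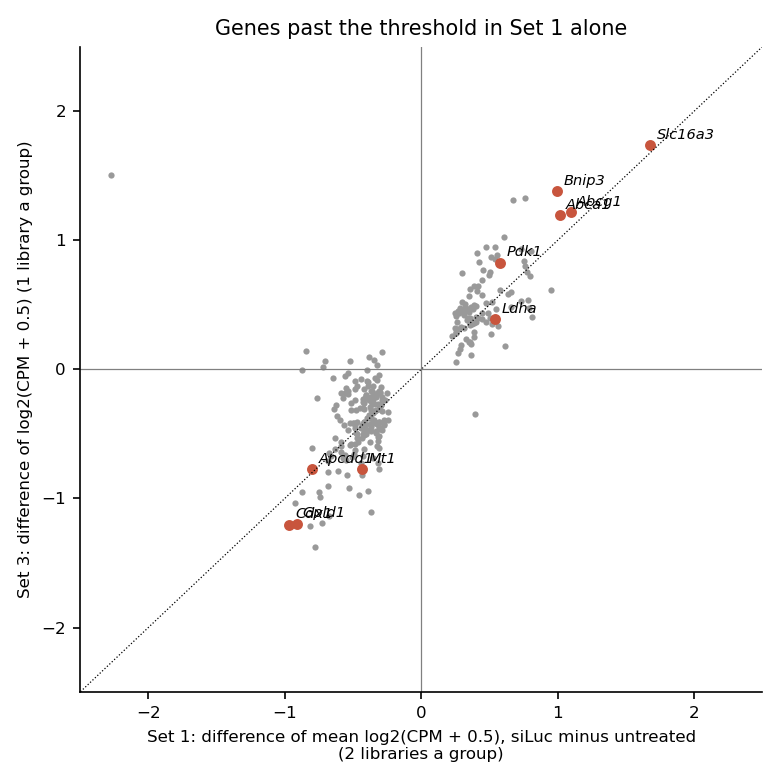
Difference of mean log2(CPM + 0.5) between siLuc and untreated libraries in Set 1 (horizontal axis, 2 libraries a group) and in Set 3 (vertical axis, 1 library a group) for the 297 genes past the threshold in Set 1 alone; the dotted line marks equal differences. 287 genes lie in the quadrants of equal sign, with Slc16a3, Bnip3, Abcg1 and Abca1 at the upper right and Cdx1 at the lower left.

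Cells given the Stag3 siRNA were transfected in the same way and were compared with the same untreated libraries, so the comparisons share their controls and are only set side by side. Against untreated cells siStag3 gave 361 calls (2.53%). Abcg1 was at 36.2, 36.7 and 36.7 CPM in siStag3, Abca1 at 107, 109 and 45.2 CPM and Mylip at 14.8, 16.4 and 16.0 CPM. Slc16a3 was at 3.62, 2.05 and 7.49 CPM, Bnip3 at 11.5, 11.5 and 15.3 CPM, and Cdx1 at 8.79, 8.22 and 9.77 CPM. Within each set these 6 genes were on the same side of the untreated libraries in every transfected library; across sets only Abca1 overlapped, in siStag3. The median of the WNT list was -0.48 in siStag3 and that of the mitochondrially encoded genes 0.47. Mitochondrially encoded genes took 6.60%, 6.78% and 4.10% of the counts in siStag3. The share in Set 3 lay within the untreated range of 3.48% to 5.33%, though above the untreated library of that set. Glrx and Rbm47 did not move in siStag3 as they did in siLuc, a difference between the siRNAs that was not tested. Glrx was at 46.1, 48.5 and 46.6 CPM in siStag3, at or just above the untreated libraries. Rbm47 was at 13.5, 14.3 and 11.9 CPM in siStag3 beside a mean of 19.7 ± 0.626 CPM in siLuc (SD, n = 3). In Set 3 the untreated library had Rbm47 at 15.2 CPM, above the siStag3 library. In Set 3, where siStag3 and untreated cells share experiment 5, Tfrc was at 426 CPM in siStag3 and 634 CPM in siLuc, and Notum at 114 CPM and 72.8 CPM. Set 1 differed for Tfrc, at 742 and 792 CPM in siStag3 and 682 and 688 CPM in siLuc, beside 438 and 528 CPM in untreated cells.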

How the data were processed

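The authors deposited 1 table of raw counts per gene, whole numbers with an Ensembl ID and symbol, for 16636 genes; per the submitters' processing notes FastQC, Salmon, DESeq2 and GRCm39 were used, without versions or roles, so the step from Salmon estimates to whole counts and the use of strand are not given in the sources used here. Genes were tested with edgeR 4.0.16 in R 4.3.3 (TMM, filterByExpr, estimateDisp, robust glmQLFit, glmQLFTest) on all 9 libraries with group and set as terms (5 residual degrees of freedom); p-values are two-sided and adjusted by Benjamini-Hochberg over the 14246 genes tested, at 0.05. SE is the absolute log2 fold change over the square root of F. The set was taken as a technical batch; the labels do not say what it is. They call the replicates biological without naming separate cultures, so p-values measure the spread between these libraries.

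GC content came from the longest GENCODE M21 transcript of each gene, and the correction subtracted, per library, the median deviation of genes in each of 20 GC bins. CPM floors of 3 counts were 0.0674 to 0.102 and cover counting error only. Alternatives were DESeq2 1.42.0, other scalings, filters and sample choices. The fit was tested on simulated data for 14103 genes (158 calls, 8 false). Those counts were drawn with no drift in GC content between libraries of a set, which the real libraries showed. The share of false calls may therefore not carry over. Members of the 63 lists and the promoters were chosen with earlier results of these data known. Named genes were the 3 given markers and Stag3, the 10 largest rises and falls without overlap (mean log2 CPM 1 or more), and in each list up to 4 members past the threshold in each direction, or the 2 highest where none passed, and the cell type markers; other list members quoted as not passing were chosen after their values were seen. Lists are described by counts and medians, with no test.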

Additional observations from a re-analysis of the deposited data

Results flagged for a closer look

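Nnt, the mitochondrial transhydrogenase, responded differently to siLuc in the 2 sets by a test of that difference (edgeR interaction, adjusted p 0.0032). It was at 13.8 and 11.7 CPM in untreated cells and 9.30 and 8.72 CPM in siLuc in Set 1, and at 5.44 and 20.7 CPM in Set 3. A second entry with the same symbol went the other way in Set 3, from 34.0 to 26.7 CPM (interaction adjusted p 0.283), so how reads were shared between the entries bears on both values and was not tested.

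Gm15023 was the other gene past that test (adjusted p 0.00395). It was at 2.16 and 1.68 CPM in untreated cells and listed at 0 in both siLuc libraries of Set 1, where 3 counts equal 0.093 and 0.0812 CPM, and went from 0.563 to 2.52 CPM in Set 3. In Set 3 the siLuc library is of another experiment than the untreated one, and the set and the experiment cannot be told apart for either gene.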

How the results depend on the processing

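The count of 598 genes was 1 without the set covariate, 1016 with GC correction, 1328 with the DESeq2 Wald test, 1801 with only the 6 libraries compared and 86 with set and experiment as additive terms. Leaving out 1 library gave 111 to 387, and Set 1 alone 298. Alternatives chosen after seeing the data gave 317 with a library block of 3 levels (Set 1 experiment 1, Set 1 experiment 3, Set 3) and 1338 with GC and length correction. The cause was not tested. DESeq2 size factors (628), total counts (761), testing all genes (647), a minimum mean of 50 counts (614), a non-robust fit (457) and leaving out mitochondrially encoded genes with the 10 highest (590) stayed within 1.5 times. The count of 2 genes that differ between sets was 11 with GC correction and 2 with total counts or DESeq2 size factors. None of the 186 genes taken through these settings reversed in sign where it passed in the main or the alternative fit. Genes past neither could change sign: Hsp90b1 went from a log2 fold change of 0.07 to -0.09 with GC content corrected. No paired analysis was possible because column names show no replicate number of the labels; this concerns those numbers only, since the library block above matches Set 1 libraries by experiment. The sequencing depth limits genes below about 1 CPM, and 3 libraries a group limit the small changes: in simulated data 30% of genes changed by 0.3 on the log2 scale were recovered and 98% of those changed by 1. The simulated data lacked the GC drift between libraries, so recovery in the real data can differ.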
